A study of Mus musculus with 8 samples.

Results

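The genes described here are 10 genes of WNT signalling and liver zonation, namely Ctnnb1, Tcf7l2, Lgr5, Rnf43, Znrf3, Axin2, Tbx3, Glul, Rhbg and Lect2. They were listed by name, out of 55341 gene symbols of the GENCODE M21 annotation of mm10. No measured value enters the rule, but the list was drawn up with earlier results of these data known. The data are H3K27ac ChIP-seq regions of mouse primary hepatocytes (MPH) from adult male C57Bl6 mice (C57BL/6J in the study's methods) that were wild type (WT). All cells were kept in serum-free William's medium and received either 1 µM thapsigargin, which blocks the pump that fills the endoplasmic reticulum (ER) with calcium and so triggers ER stress (ERS), or the vehicle alone (0.04% DMSO), for 4 h. The 8 libraries were 3 H3K27ac libraries per treatment, 1 from each of 3 hepatocyte preparations, and an input per treatment.

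H3K27ac, acetylation of histone H3 at lysine 27, marks active promoters and enhancers. The authors placed each acetylated region in 1 of 3 deposited lists, H3K27ac UP, H3K27ac DOWN or unchanged, from a paired test of thapsigargin against DMSO. Unchanged means that the false discovery rate was above 0.05, which does not show that the level stayed the same, and regions whose bins moved in both directions were in no list, so that a gene without a listed region may still carry the mark. The lists give positions only. A region therefore has a class and a width here, but no signal in any library, no error and no depth, and no test between treatments could be run on it. The transcription start sites (TSSs) of Hspa5, Ddit3 and Xbp1, textbook targets of ERS, lay in UP regions for 3 of 3 genes. UP was read as higher with thapsigargin from the study's description of the lists and from these genes, since the code printed by the study orders the treatments so that its coefficient could read the other way, and every UP and DOWN here rests on that reading.

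In canonical WNT signalling, a WNT ligand at its receptor stops a cytoplasmic complex from destroying beta-catenin, which then enters the nucleus and activates genes with DNA-binding partners of the TCF/LEF family. R-spondins bound to LGR receptors strengthen the signal by removing the ubiquitin ligases RNF43 and ZNRF3 from the cell surface. In the liver lobule, endothelial cells around the central vein release WNT ligands, and the hepatocytes beside them, called pericentral, make glutamine synthetase and other products that periportal hepatocytes lack. MPH preparations mix hepatocytes of all zones, so that a change in one zone and a change in all of them cannot be told apart in these lists.

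The sequences below come from some, not all, of the changed regions described further on. They were read from mm10, 5′ to 3′, and capitals mark exact matches to 1 of 4 short motifs searched on both strands: CTTTGAT (TCF/LEF), CAAAGTC (HNF4, the family of the hepatocyte factor HNF4A), TGANTCA (AP-1) and TTGCATC (ATF4/CHOP, the factors of the ERS response). The TCF/LEF and HNF4 motifs both hold CTTTG on one strand, so that a single stretch can carry both. The first sequence is part of the DOWN region upstream of Ctnnb1 (chr9:120900832-120901131, plus strand) and has 2 HNF4 matches. The next 2 are from the DOWN region inside Rnf43 (chr11:87702064-87702363, plus strand), with 1 TCF/LEF and 1 HNF4 match, and from the DOWN region upstream of Lect2 (chr13:56558934-56559233, plus strand), with 1 HNF4 and 1 AP-1 match. The last 2 are part of the UP region inside Znrf3 (chr11:5343634-5343933, plus strand) with 2 AP-1 matches, and the whole UP region upstream of Lgr5 (chr10:115627443-115627677, plus strand), which has no match. The changed regions not shown, those of Tcf7l2 and Rhbg and the narrower one of Rnf43, had no match to any of the 4 motifs either. The Ctnnb1 and Rnf43 stretches lie off the centre of their regions and end on an HNF4 match, so that they need not stand for the whole region.
Ctnnb1 DOWN: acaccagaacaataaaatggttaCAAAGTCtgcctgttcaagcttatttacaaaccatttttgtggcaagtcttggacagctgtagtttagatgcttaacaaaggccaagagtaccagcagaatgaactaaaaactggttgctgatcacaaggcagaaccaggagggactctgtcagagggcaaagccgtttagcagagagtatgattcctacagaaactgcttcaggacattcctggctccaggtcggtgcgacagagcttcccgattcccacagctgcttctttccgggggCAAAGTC
Rnf43 DOWN: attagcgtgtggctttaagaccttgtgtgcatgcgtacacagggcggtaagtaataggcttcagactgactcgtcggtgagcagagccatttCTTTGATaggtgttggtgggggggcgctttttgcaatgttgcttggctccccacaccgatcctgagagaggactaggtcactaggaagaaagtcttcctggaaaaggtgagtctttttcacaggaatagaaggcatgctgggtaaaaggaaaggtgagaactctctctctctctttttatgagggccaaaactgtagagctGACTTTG
Lect2 DOWN: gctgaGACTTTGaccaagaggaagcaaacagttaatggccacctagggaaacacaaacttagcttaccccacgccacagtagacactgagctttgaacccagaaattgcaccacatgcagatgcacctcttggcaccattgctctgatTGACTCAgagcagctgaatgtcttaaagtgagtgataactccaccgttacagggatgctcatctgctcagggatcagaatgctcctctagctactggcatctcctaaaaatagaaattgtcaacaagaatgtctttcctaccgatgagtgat
Znrf3 UP: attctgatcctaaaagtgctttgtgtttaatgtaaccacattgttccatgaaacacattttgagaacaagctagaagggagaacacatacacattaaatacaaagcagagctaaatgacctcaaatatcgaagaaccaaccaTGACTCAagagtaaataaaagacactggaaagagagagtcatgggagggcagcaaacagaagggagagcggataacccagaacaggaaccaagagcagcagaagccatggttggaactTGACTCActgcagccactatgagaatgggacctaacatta
Lgr5 UP: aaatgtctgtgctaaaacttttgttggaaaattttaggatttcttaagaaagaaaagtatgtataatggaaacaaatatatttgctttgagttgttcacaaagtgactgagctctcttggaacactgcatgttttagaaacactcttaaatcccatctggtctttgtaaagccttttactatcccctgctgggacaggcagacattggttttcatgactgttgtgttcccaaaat

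At the TSSs, none of the 10 genes had an H3K27ac UP or DOWN region. Ctnnb1, Tcf7l2, Rnf43, Znrf3, Axin2, Tbx3, Glul and Lect2, 8 of 10, had a TSS in an unchanged region, and Lgr5 and Rhbg had none in any listed region. The background was 12261 genes whose TSS fell in any region, of which 21.4% were at UP, 8.91% at DOWN and 73.7% at unchanged regions, some of them at more than one kind. With 8 genes, 0 UP and 0 DOWN is a description of these genes only. The count of 0 UP held for every definition of the TSS that was tried, and the count of 0 DOWN held for all but that of a TSS within 1 kb of a region, which added Rnf43.

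Each of the 8 genes had exactly 1 region at its TSSs, and their widths ran from 669 bp at Axin2 to 5507 bp at Tbx3, with a median of 3337 bp. The median of all 7667 unchanged regions with a TSS was 1530 bp, and 6 of 8 members were above it. Ctnnb1, which encodes beta-catenin, had a region of 3466 bp (chr9:120933378-120936843), wider than 86.2% of the unchanged regions with a TSS. It held the starts of 6 of the 15 annotated Ctnnb1 transcripts and covered exon 1 and part of intron 1, while the most upstream annotated start of the gene, at position 120929216, lay outside it. Tcf7l2, a TCF family member that binds DNA for beta-catenin, had 4820 bp (chr19:55740726-55745545, percentile 92.9), over exons 1 to 3, with the starts of 16 of its 22 transcripts. These pathway genes at the nuclear end thus had wide unchanged promoter regions.

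The negative regulators of the pathway ranged more widely. Rnf43, one of the ubiquitin ligases that remove WNT receptors, had a promoter region of 4220 bp (chr11:87662620-87666839, percentile 90.7), and its relative Znrf3 had 1234 bp (chr11:5444148-5445381, percentile 37.7). The Znrf3 region was 75.9% G and C, against 41.3% for that of Rnf43. Axin2, a scaffold of the beta-catenin destruction complex that is itself induced by WNT signalling, had the narrowest region of the members, 669 bp (chr11:108920407-108921075, percentile 12.1). It held the start of 1 of 7 Axin2 transcripts and began 58 bp downstream of the gene's most upstream annotated start, so that Axin2 lost its region when only transcripts tagged basic in the annotation were counted.

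Among the zonated genes, 3 had a region at a TSS. Tbx3, a transcription factor of the T-box family, had 5507 bp (chr5:119669373-119674879, percentile 94.7), which also held a TSS of the antisense gene Tbx3os1. Glul, the pericentral enzyme glutamine synthetase, had 1599 bp (chr1:153899815-153901413, percentile 52.8), with 3 of its 5 transcripts starting inside and with TSSs of Mir8114 and Teddm2 in the same region. Lect2, a chemotactic protein secreted by hepatocytes, had 3208 bp (chr13:56548040-56551247, percentile 83.8), of which 463 bp lay inside the gene and the rest upstream of it. Rhbg, an ammonium carrier of pericentral hepatocytes, has 1 annotated transcript, and its TSS was 16.4 kb from the nearest listed region, an unchanged one. The closest region to a TSS of Lgr5, the R-spondin receptor, was also unchanged and lay 19.2 kb away, beyond the 3′ end of the gene. That TSS, at position 115458999, is the start of a retained-intron transcript not tagged basic. For the protein-coding starts of Lgr5, the nearest region was an UP region, 39663 to 39950 bp away.

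**Figure D1:**
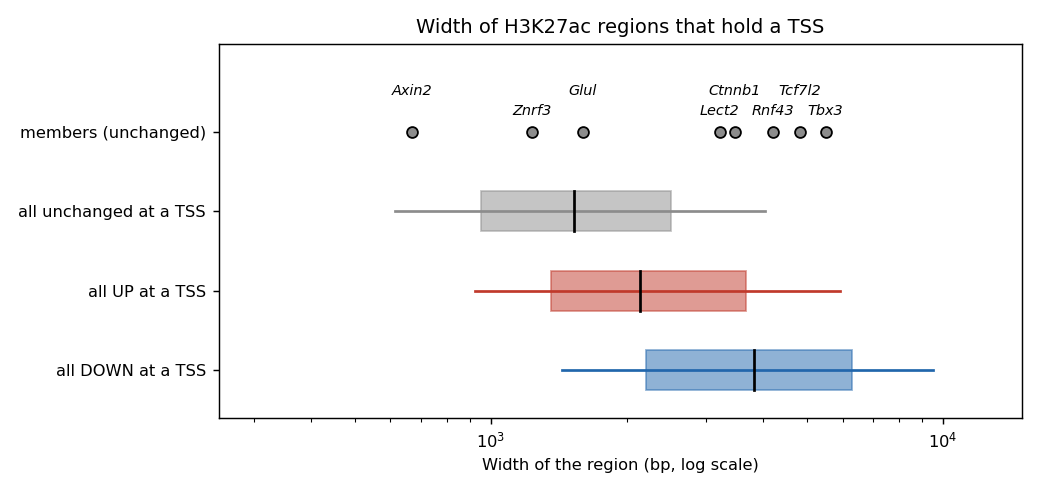
Width in bp (log scale) of the H3K27ac regions that hold a TSS. Each point is the region of 1 of 8 members, all unchanged, and the boxes give the 25th to 75th percentile, the median (black line) and the 10th to 90th percentile (coloured line) of all unchanged, UP and DOWN regions with a TSS. Axin2 (669 bp) sits at the narrow end and Tbx3 (5507 bp) at the wide end, with 6 of 8 members above the unchanged median of 1530 bp.

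Over the gene bodies and within 50 kb of the TSSs, the 10 genes had 42 distinct regions, of which 3 were UP, 5 DOWN and 34 unchanged. The changed share was 19.0%, with a Wilson 95% interval of 9.98% to 33.3% that covers counting error only, against 27.6% of all 32196 regions, of which 17.1% were UP and 10.5% DOWN. Ctnnb1, Tcf7l2, Rnf43 and Lect2 had DOWN regions only, and Lgr5, Znrf3 and Rhbg had UP regions only. Axin2, Tbx3 and Glul had no changed region, and no member had both kinds. Of the 8 changed regions, 3 lay in a member's gene body, 2 held the TSS of another gene, and for 2 the nearest TSS was that of the member itself.

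**Figure D2:**
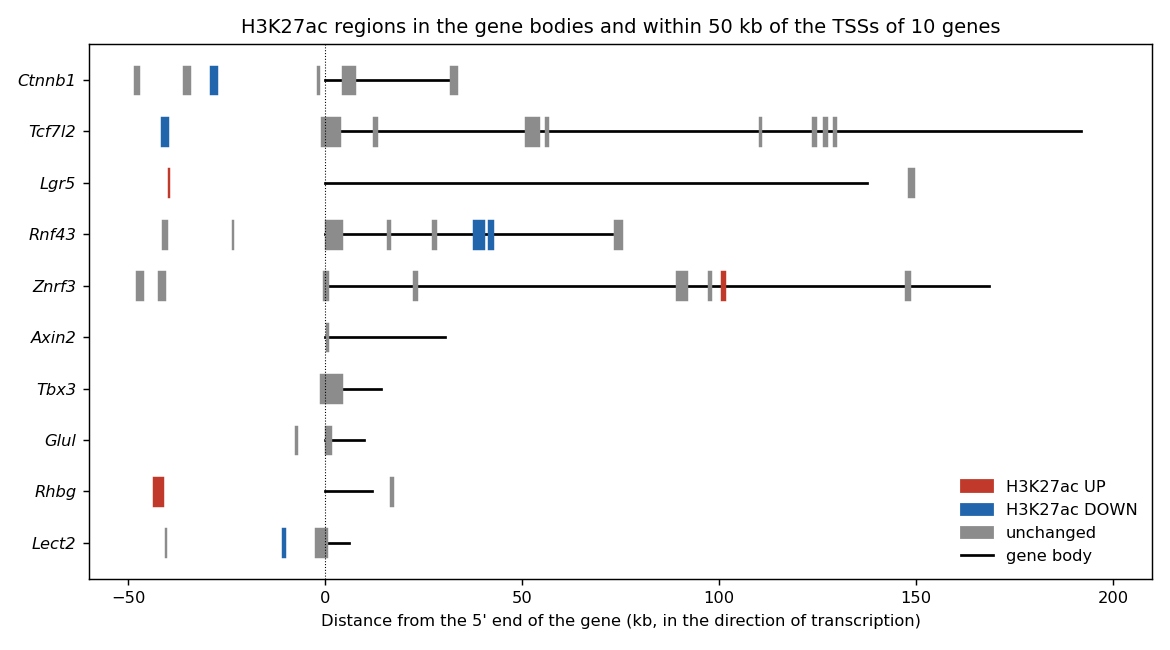
H3K27ac regions of the 10 genes, drawn to scale by distance in kb from the 5′ end of the gene in the direction of transcription. Red blocks are UP, blue blocks DOWN and grey blocks unchanged regions, and the black line is the gene body. All 3 UP and all 5 DOWN blocks lie away from the 5′ ends, and 8 genes have a grey block at or near theirs.

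DOWN regions lay upstream of both nuclear effectors. The one near Ctnnb1 was 1751 bp wide (chr9:120899948-120901698) and 27.5 kb upstream of the gene, although the closest annotated TSS, that of 1700020M21Rik, was 13.6 kb away. The one near Tcf7l2 was 1805 bp wide (chr19:55700160-55701964) and 39.9 kb upstream, and it lay in 4930552P12Rik, 240 bp from a TSS of that gene. All 8 regions inside the Tcf7l2 gene body, which spans 191835 bp, were unchanged. The widest of them after the promoter, 3421 bp (chr19:55792593-55796013), lay in intron 3. Ctnnb1 had no other region in its gene body than that at the TSSs, and its widest other unchanged region, 1949 bp (chr9:120893009-120894957), lay 34.3 kb upstream.

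Rnf43 was the only member with more than 1 changed region. Of 5 regions in its gene body, 2 were DOWN, and both lay in intron 2 of the reference transcript. The wider one, 3029 bp (chr11:87700091-87703119), began 194 bp downstream of an internal Rnf43 start at position 87699897, which belongs to a protein-coding transcript tagged basic, and held a TSS of 1110028F11Rik. The other, 1230 bp (chr11:87703962-87705191), followed 4.07 kb downstream of that start. The overlapping gene means that the acetylation of either gene cannot be told apart in these lists. By contrast the main Rnf43 promoter region was unchanged, as was the widest other region nearby, 1995 bp (chr11:87736048-87738042), which held the TSS of Supt4a. The Lect2 DOWN region, 911 bp (chr13:56558629-56559539), lay 10.1 kb upstream of Lect2, and Lect2 was the gene with the nearest TSS. It was narrow for its class, with 11.6% of all DOWN regions narrower.

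The 3 UP regions were as scattered. In Znrf3, 1 of 6 regions in the gene body was UP, a region of 961 bp (chr11:5343304-5344264) in intron 1, and Znrf3 had the nearest TSS. That TSS, 37.5 kb away, was the internal start of a shorter transcript at position 5381740, and the region's near edge lay 100583 bp downstream of the 5′ end of the gene. The same intron held the widest other unchanged region of Znrf3, 2833 bp (chr11:5352945-5355777). The UP region of Lgr5 was 235 bp wide (chr10:115627443-115627677), 39.7 kb upstream of the gene and 27.1 kb from the nearest TSS, that of Gm8960. Only 52 of the 5508 UP regions were narrower. Its other region, unchanged and 1428 bp wide (chr10:115438363-115439790), was 7.28 kb from a TSS of Zfc3h1. The UP region of Rhbg, 2591 bp (chr3:88295812-88298402), was 41.1 kb upstream and held TSSs of Cct3, a subunit of a cytosolic chaperonin, and of Tsacc, so that it was the promoter region of other genes. The remaining region near Rhbg was unchanged and 756 bp wide (chr3:88237543-88238298).

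Axin2 and Tbx3 each had only the region at their TSSs within 50 kb. Glul had 1 further region, unchanged and 672 bp wide (chr1:153892167-153892838), 7.11 kb upstream and at a TSS of Gm38352. The remaining region of Lect2 was 235 bp wide (chr13:56588913-56589147), unchanged, and 40.4 kb upstream. Expressed per gene body, listed regions covered 30.0% of Tbx3, 15.0% of Glul, 14.4% of Rnf43, 11.1% of Ctnnb1, 7.67% of Lect2, 6.56% of Tcf7l2, 4.65% of Znrf3 and 2.2% of Axin2. Lgr5 and Rhbg had no region in the gene body.

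The members fell into sparse and dense neighbourhoods. Tcf7l2 and Rnf43 had 8 regions each within 50 kb of a TSS, Znrf3 had 7 and Ctnnb1 had 6, while Lect2 had 3, Lgr5, Glul and Rhbg had 2 each, and Axin2 and Tbx3 had 1 each. The members' median was 2.5, against 4 for all genes with a TSS in a region (25th to 75th percentile, 3 to 7). That background leaves out genes such as Lgr5 and Rhbg, and over the 8 members with a TSS in a region, a restriction added after the data were seen, the median was 4.5, above the background instead of below it. A gene with TSSs spread over a long body, such as Tcf7l2, has a larger window than a gene with a single TSS. At least 1 UP region lay within 50 kb in 3 of 10 members, against 53% of all genes with a TSS in a region, and at least 1 DOWN region in 4 of 10, against 31.9%. Among the 8 members with a TSS in a region, 1 (Znrf3) had an UP region and 4 had a DOWN region.

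**Figure D3:**
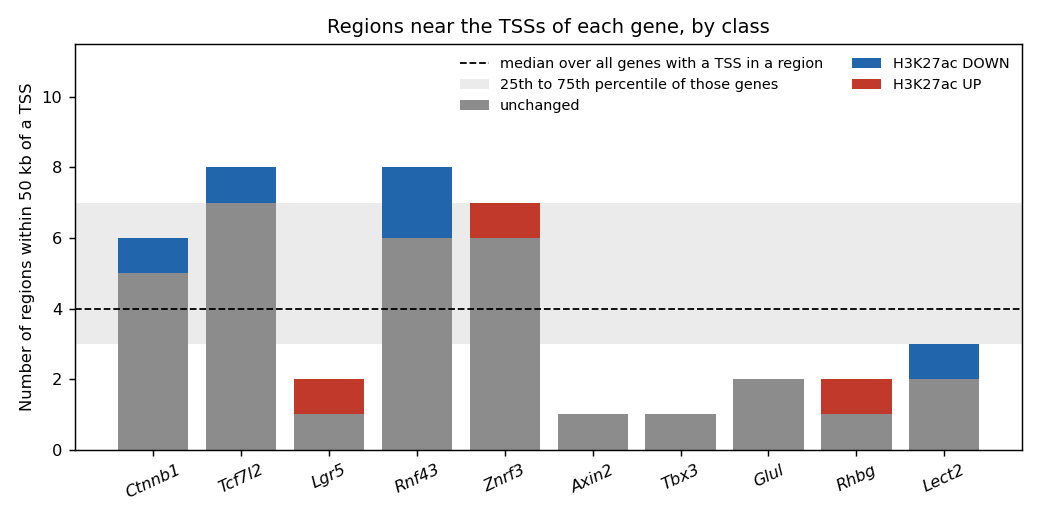
Number of H3K27ac regions within 50 kb of a TSS of each gene, stacked by class (grey, unchanged; blue, DOWN; red, UP). The dashed line is the median over all 12261 genes with a TSS in a region and the band their 25th to 75th percentile. Tcf7l2, Rnf43, Znrf3 and Ctnnb1 stand above the median of 4 and the other 6 genes below it.

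Of the changed regions within 50 kb, 3 of 8 were UP, a share of 37.5% (Wilson 95% interval, 13.7% to 69.4%), against 62.0% of all changed regions. The interval holds the share over all regions. The balance moved with the window, since 100 kb gave 11 UP and 6 DOWN regions, a share of 64.7%, and 10 kb gave 0 UP and 2 DOWN regions, those of Rnf43. Of regions within 50 kb whose nearest TSS was the member's own, 18 in all, 1 was UP (Znrf3), 1 was DOWN (Lect2) and 16 were unchanged.

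The distance to the nearest changed region described the genes without one. The nearest UP region lay 37.5 kb from a TSS of Znrf3, 39.7 kb from Lgr5, 41.1 kb from Rhbg, 66.7 kb from Rnf43 and 98.4 kb from Lect2. It lay 326 kb from Ctnnb1, 475 kb from Glul, 576 kb from Tcf7l2, 651 kb from Axin2 and 831 kb from Tbx3. The median over the members was 212 kb, against 42.8 kb for all genes with a TSS in a region, and 7 of 10 members were farther than that. Without Lgr5 and Rhbg, which have no TSS in a region, it was 401 kb. The UP side was therefore sparse around Ctnnb1, Tcf7l2, Glul, Axin2 and Tbx3, for each of which at most 11.2% of all genes had their nearest UP region farther away.

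The nearest DOWN region lay 0.194 kb from a TSS of Rnf43, 10.1 kb from Lect2, 27.5 kb from Ctnnb1, 39.9 kb from Tcf7l2 and 53.0 kb from Znrf3. It lay 104 kb from Rhbg, 128 kb from Glul, 189 kb from Lgr5, 447 kb from Axin2 and 786 kb from Tbx3. The median was 78.5 kb, or 46.4 kb without Lgr5 and Rhbg, against 124 kb for all genes with a TSS in a region, and 4 of 10 members were farther than that. Tbx3 and Axin2 were the farthest of the members from both UP and DOWN regions.

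**Figure D4:**
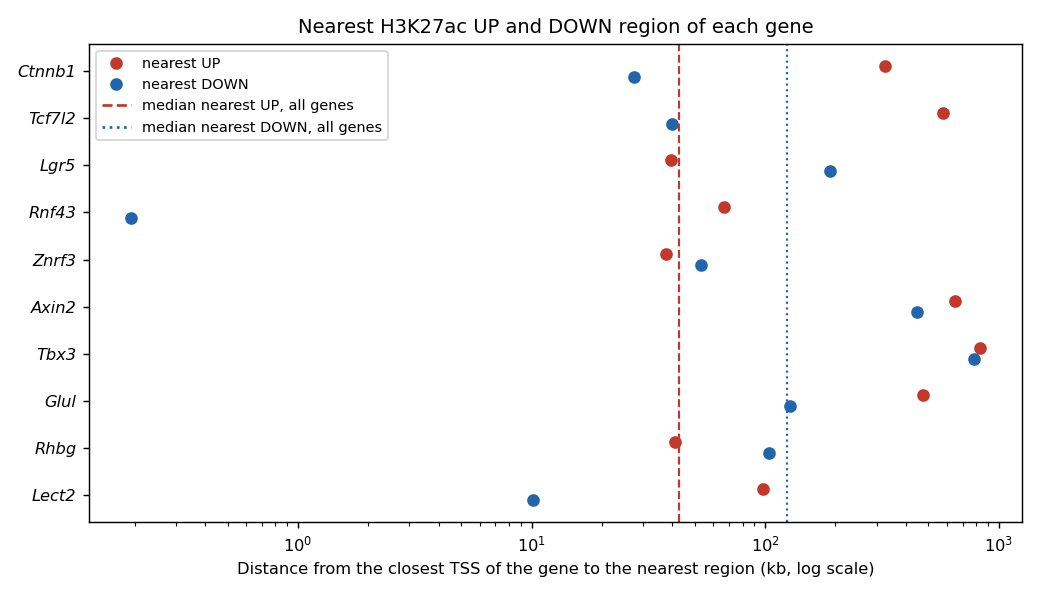
Distance in kb (log scale) from the closest TSS of each gene to the nearest H3K27ac UP region (red) and DOWN region (blue). The dashed and dotted lines are the medians over all genes with a TSS in a region, 42.8 kb for UP and 124 kb for DOWN. Rnf43 has a DOWN region at 0.194 kb, and Axin2 and Tbx3 have the rightmost points of both colours.

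The TCF/LEF motif, the sequence through which beta-catenin's partners bind DNA, was searched in all regions. It occurred in 15 of the 42 member regions, against 22.7% of all regions, and at 0.228 matches per kb, against 0.161. Among the 8 regions at the members' TSSs, 5 had 1 match each (Ctnnb1, Tcf7l2, Axin2, Tbx3 and Lect2), against 19.4% of all unchanged regions with a TSS, and the match density was 0.202 per kb, against 0.121. A wider region has more room for a match, and these 8 regions were wider than the background's (median 3337 bp against 1530 bp), which the density per kb takes into account and the share does not. The 42 regions as a whole were not wider, with a median of 1238 bp against 1311 bp for all regions. The member densities rest on only 16 matches in the 42 regions and 5 in those at the TSSs. No counting error was computed for them, and their difference from the background was not tested. A match is a run of letters and not a site known to be bound. The windows below show 4 of these 5 matches, and the 2 in the Rnf43 DOWN region, with 11 bases on each side and the motif in capitals. They lie at chr9:120934632-120934660 (Ctnnb1), chr19:55744950-55744978 (Tcf7l2), chr11:108920416-108920444 (Axin2) and chr13:56548553-56548581 (Lect2), all on the plus strand, and at chr11:87701020-87701048 (minus strand) and chr11:87702145-87702173 (plus strand) in Rnf43.
Ctnnb1: ggcagctttgcCTTTGATaaagtctgcct
Tcf7l2: tgaatattgagCTTTGATggcaggcttgt
Axin2: agccggctgcgCTTTGATaaggtcctggc
Lect2: ccggccaaagcCTTTGATctggagaagca
Rnf43, first: ttattatttagCTTTGATgttgtctttat
Rnf43, second: cagagccatttCTTTGATaggtgttggtg

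The match lay 65 bp upstream of the nearest TSS at Lect2, 81 bp downstream at Axin2, 828 bp downstream at Ctnnb1 and 2.12 kb downstream at Tcf7l2. At Rnf43 the matches lay 1.14 kb and 2.26 kb downstream of the internal start. The 3029 bp DOWN region of Rnf43 was the only 1 of 8 changed regions with a TCF/LEF match. Over all regions, 27.2% of UP and 35.1% of DOWN regions had a match. Promoters of 300 bases were taken from RefSeq, build GRCm38.p6, for 6 members (Glul, Ctnnb1, Rnf43, Axin2, Lect2 and Tcf7l2), some of them with several promoters. Among these promoters, only that of Lect2 had this motif, against 3.73% of all 32851 such promoters. The 250 bases before the RefSeq start of Lect2 (chr13:56548539-56548788, minus strand) lie in the unchanged region and carry the motif as ATCAAAG, its reverse complement. It is the same match as in the Lect2 window above (chr13:56548564-56548570). The distance of 65 bp given for it was counted from the GENCODE start at position 56548502, which is not the RefSeq start, so that the match lies closer to the end of the sequence below.
Lect2 promoter: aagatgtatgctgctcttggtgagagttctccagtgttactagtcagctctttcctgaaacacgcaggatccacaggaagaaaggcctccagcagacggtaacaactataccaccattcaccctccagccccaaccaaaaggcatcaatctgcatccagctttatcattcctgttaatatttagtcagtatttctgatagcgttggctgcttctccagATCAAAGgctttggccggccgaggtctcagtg

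Of the other motifs, HNF4 was more frequent and ATF4/CHOP less frequent than over all regions, and AP-1 was about as frequent. These differences were not tested. HNF4 matches occurred in 14 of 42 member regions, against 26.7% of all regions, and at 0.257 per kb, against 0.192. They were found in 3 of the 5 DOWN regions, those of Ctnnb1, Lect2 and the wider one of Rnf43, against 42.0% of all DOWN regions. They were also in 1 of the 3 UP regions, that of Znrf3, against 29.6% of all UP regions. AP-1 matches occurred in 20 of 42, about the same share as the 47.5% of all regions, and at 0.428 per kb, against 0.461. The ATF4/CHOP motif occurred in 2 of 42 member regions, against 14.6%, at 0.0285 per kb against 0.0925. It was in none of the 8 changed ones, against 23.6% of all UP and 20.7% of all DOWN regions.

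Around the members, 81 further genes of the WNT pathway were counted in 5 lists. Of these, 41 had a TSS in a region. UP regions held TSSs of 8 genes (19.5%) and DOWN regions those of 4 (9.76%), and 29 were at unchanged regions only, beside 21.4% UP and 8.91% DOWN over all genes. Of 15 genes for ligands and their secretion, 2 had a TSS in a region. One was Wnt5b, a ligand of the pathway's non-canonical arm, in a DOWN region of 1954 bp. That region covered neither end of the gene. The other gene was unchanged. Wnt2, Wnt9b and the R-spondin Rspo3, which liver endothelial cells and their neighbours release, had no TSS in a listed region. In the same lists the TSSs of 8 of 8 hepatocyte markers lay in a region (4 DOWN, 4 unchanged), as did those of 2 of 6 sinusoidal endothelial markers, 0 of 6 Kupffer cell markers, 0 of 6 stellate cell markers and 2 of 6 cholangiocyte markers, and the part of other cell types in these regions was not tested.

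Among 14 receptor genes, 9 had a TSS in a region, 11.1% of them UP and 0% DOWN, beside 21.4% and 8.91% over all genes. Lrp6, the co-receptor of the Frizzled proteins, lay in an UP region of 8766 bp, and the other 8 were unchanged, including Fzd4 with 2078 bp and Lgr4, a second R-spondin receptor, with 5968 bp. All 16 genes of the cytoplasmic relay and the destruction complex had a TSS in a region, 18.8% UP and 6.25% DOWN beside the same background. Of these, 3 were UP, namely Gsk3b, the kinase that marks beta-catenin for destruction, with 11260 bp, Frat2, which binds that kinase, with 1705 bp, and Dvl2, which relays the signal from the receptor, with 1053 bp. Apc, a scaffold of the destruction complex, was the only DOWN gene, with 1863 bp, and also had an unchanged region of 557 bp at another TSS. Axin1, the constitutive relative of Axin2, was unchanged with 844 bp, as was Axin2 itself. The Axin1 region (chr17:26142592-26143435) covered neither end of the gene.

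Among 17 nuclear partners of beta-catenin, 11 had a TSS in a region. Of these, 18.2% were UP and 18.2% DOWN, beside 21.4% and 8.91% over all genes, and both shares rest on 2 genes. The UP genes were Tle1 (4423 bp) and Tle4 (2647 bp), which encode co-repressors that TCF proteins bind in the absence of beta-catenin. The DOWN genes were Bcl9l (8509 bp), a coactivator of beta-catenin that also had an unchanged region of 876 bp, and Tle5, annotated as Aes (5700 bp), a short relative of the TLE co-repressors. Tcf7l1 was unchanged with 903 bp, but this region (chr6:72630116-72631018) covered neither end of the gene, unlike that of Tcf7l2. Tcf7 and Lef1, the other TCF/LEF genes, had no TSS in a region. Of 20 feedback inhibitors and target genes, 3 had a TSS in a region, and 2 of them were UP, Myc with 10583 bp and Sox9 with 2906 bp. Sox9 is also among the cholangiocyte markers counted above, and which cells carried its region was not tested. The UP share of 66.7%, beside 21.4% over all genes, rests on only 3 genes. Nkd1, Sp5 and Ccnd1, further WNT targets, had no TSS in a region.

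Of 14 other pericentral genes, 8 had a TSS in a region, 3 UP (37.5%), 1 DOWN (12.5%) and 4 unchanged only, beside 21.4% UP and 8.91% DOWN over all genes. The UP regions were those of Slc1a2, a glutamate carrier, with 8540 bp, Slc1a4, a carrier of neutral amino acids, with 2532 bp, and Oat, which degrades ornithine, with 529 bp. That of Slc1a2 (chr2:102757442-102765981) covered neither end of the gene (102658659 to 102790784) and so lay at an internal start. Aldh1a1, an aldehyde dehydrogenase, had a TSS in a DOWN region of 10470 bp, which also covered neither end of its gene. Cyp2e1 and Cyp1a2, pericentral cytochromes P450, had no TSS in a listed region. Of 16 periportal genes, 14 had a TSS in a region, 1 UP (7.14%), 2 DOWN (14.3%) and 11 unchanged only, beside the same background. Both lists are small, so that 1 gene moves these shares by several percentage points. Gls2, the liver glutaminase, was UP with 1358 bp, and Cdh1 (E-cadherin) with 9388 bp and Sdsl with 3242 bp were DOWN, the latter also with an unchanged region of 1688 bp. The Sdsl DOWN region covered neither end of the gene. That of Cdh1 began at position 106603383, with the gene's first base at 106603351. Cps1 and Arg1 of the urea cycle were unchanged, with 8305 bp and 5917 bp. Pericentral and periportal genes thus each had UP, DOWN and unchanged members, and the difference between the lists was not tested.

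**Figure D5:**
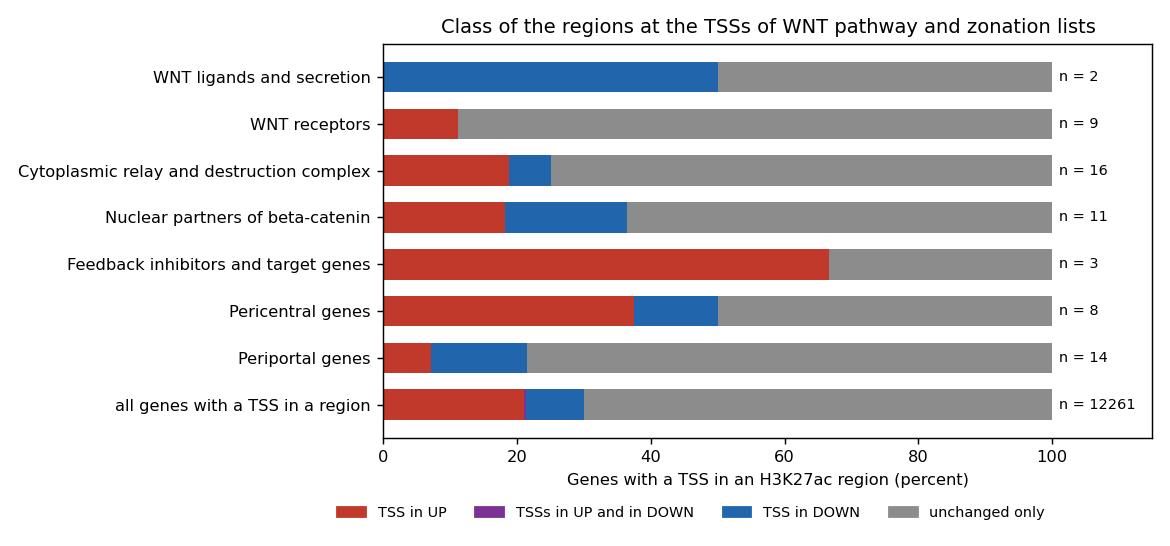
Percent of the genes with a TSS in an H3K27ac region with a TSS at UP (red), at DOWN (blue), at both (purple) or at unchanged regions only (grey), for the 7 lists and for all genes, with the number of genes at the right. Most of the genes in the receptor, relay, nuclear and periportal lists are grey, as are most of all 12261 genes, and the ligand and feedback lists rest on 2 and 3 genes.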

How the data were processed

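H3K27ac ChIP-seq was performed by the authors on MPH treated with thapsigargin or DMSO. Per the labels and the paper's methods, reads were aligned to mm10 with Bowtie, duplicates and blacklisted reads were removed, and broad peaks were called with MACS2 on pooled libraries. Reads were counted with csaw in bins of 150 bp (extension 200 bp), filtered against input (prior count 5), normalized by loess and tested with the mouse as a block, and bins overlapping a peak by at least 75 bp were combined. A false discovery rate of at most 0.05 with an UP to DOWN ratio of bins of at least 2 gave UP, of at most 0.5 gave DOWN, and a rate above 0.05 gave unchanged. The 3 deposited lists hold chromosome, start and end per region, in base pairs, with no counts, signal or p-value, and the depth per library is unknown. The pairing and the normalization cannot be repeated from these lists.

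Here, starts were read as 0-based and printed 1-based. A gene was placed in a class where the TSS of any of its GENCODE M21 transcripts fell in a region. Gene bodies were taken from the first to the last base of the gene, and introns from 1 reference transcript per gene. Percentiles are among regions of the same class that hold a TSS, unless all regions of the class are named. Motifs were exact matches on both strands of mm10. Intervals are 95% Wilson intervals. The overlap code was tested on simulated data. Python 3.11.15, numpy 2.4.6, pandas 2.3.3, statsmodels 0.14.6, pysam 0.24.0 and matplotlib 3.10.9 were used.

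The members and the gene lists were chosen with earlier results of these data known. The text names each member with every region at its TSSs, every changed region, the widest other unchanged one, 22 fixed pathway and zonation genes, and up to 3 genes with the widest UP and 3 with the widest DOWN region of each list. Annotated neighbours and the genes Hspa5, Ddit3 and Xbp1 were named beside them. Alternatives covered the TSS definition, the window, the members compared with the background, the overlap rule, the region width and a shorter TCF/LEF core.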

Additional observations from a re-analysis of the deposited data

How the results depend on the processing

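Of 68 values recomputed under alternatives, 50 stayed within 1.5 times the reported value or within its counting interval and 18 moved. The interval of the UP share, 13.7% to 69.4%, is wide, so that 64.7% with a window of 100 kb counted as stayed. Counts of 0 under both settings were also among those that stayed. A TSS within 1 kb of a region gave 1 gene with a DOWN region, Rnf43. With 500 bp of the region on each side of the TSS, 5 genes were unchanged and 5 had no region (Ctnnb1, Axin2 and Lect2 joining Lgr5 and Rhbg), and with the 5′ end of the gene alone 4 had none. A window of 10 kb gave 0 UP, 2 DOWN and 13 unchanged regions and an UP share of 0%, and a window of 100 kb gave 11 UP regions. Regions of at least 1 kb left 1 UP region within 50 kb and 0 UP regions in gene bodies. Regions whose nearest TSS was the member's, a choice made after the data were seen, numbered 1 UP, 1 DOWN and 16 unchanged. Leaving out Lgr5 and Rhbg, also chosen afterwards, moved the median number of regions within 50 kb from 2.5 to 4.5, the members with an UP region there from 3 to 1, and the median distance to the nearest UP region from 212 to 401 kb and to the nearest DOWN region from 78.5 to 46.4 kb. The shorter core, CTTTGA or CTTTGT, lowered the excess of member regions with a TCF/LEF match over all regions from 13.0 to 7.78 percentage points. The counts of the WNT pathway, pericentral and periportal lists stayed within 1.5 times.

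No paired analysis was possible because the lists hold no value per library. Replicates were not left out in turn, and normalization was not varied, on the same ground. Library depth is not in the lists, and a gene without a listed region cannot be called free of the mark.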
